A study of Mus musculus with 24 samples.

Results

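Acetylcholine signalling in the lumbar spinal cord was followed through 10 genes of a table of 55418: Chat, Slc18a3 and Slc5a7, which serve the synthesis, storage and reuptake side, Ache and Bche, which encode the breakdown enzymes, and Chrm1 to Chrm5, which encode the 5 muscarinic receptors. The genes were taken by their symbols, and all 10 were found. RNA was sequenced from the L4-L6 cord of 24 C57BL/6J mice aged 8 to 10 weeks, 3 in each of 8 groups that crossed genotype, treatment and sex. Genotype was wild-type or a knockout of Chrna7, the alpha7 nicotinic receptor gene, limited to myeloid cells. The sources used here do not name the driver of that deletion. Paclitaxel, a taxane that stabilises microtubules and causes painful neuropathy in patients, was given at 1 mg/kg in 4 injections on alternate days. Controls received vehicle, a mixture of Kolliphor, ethanol and water, and tissue was taken on day 7, counted from injection 1. The design asks what the drug, the deletion and both together do to the cord.

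Cholinergic neurons make acetylcholine from choline and acetyl-CoA with choline acetyltransferase (Chat), load it into synaptic vesicles with the vesicular acetylcholine transporter (Slc18a3) and take choline back up with the high-affinity choline transporter (Slc5a7). Acetylcholinesterase (Ache) ends the signal in the synaptic cleft, and butyrylcholinesterase (Bche) hydrolyses acetylcholine more slowly and is found in glia and plasma. M1, M3 and M5 receptors (Chrm1, Chrm3, Chrm5) couple to Gq and phospholipase C, while M2 and M4 (Chrm2, Chrm4) couple to Gi/o. In the cord, somatic and autonomic motor neurons and some interneurons are cholinergic, and muscarinic receptors dampen nociceptive transmission in the dorsal horn.

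Libraries held 88812295 to 112158154 counts, and in 23 of them cord markers were abundant (Mbp at 11580 to 14440 CPM, counts scaled to a common library total, and Gfap at 1015 to 1626 CPM). The library labelled wild-type female paclitaxel replicate 3 stood apart, with Scn10a, a nociceptor sodium channel, at 772 CPM against at most 0.728 CPM in the others, and Gfap at 42.5 CPM. It is called the ganglion-like library, and values below rest on the other 23 libraries unless it is named. Chrna7 itself lay at 9.38 to 15.9 CPM in 11 wild-type cords and 9.09 to 14.5 CPM in 12 knockout cords (log2 fold change -0.11, SE 0.064, edgeR adjusted p = 0.999653). Cord neurons also transcribe Chrna7, so the whole tissue does not check a deletion limited to myeloid cells. In bulk tissue, fewer cells of a type and less RNA per cell cannot be told apart.

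Slc18a3 is nested in Chat. In GRCm38, Chat spans chr14:32408203-32465989 on the minus strand with 17 merged exons, and the single exon of Slc18a3 occupies chr14:32462438-32464850 on the same strand. It fills part of the Chat intron between an exon that ends at 32462042 and the most upstream exon, which starts at 32465807, and the genes share 0 exon bases. The RefSeq start sites lie 1059 bases apart. Slc5a7 lies elsewhere, at chr17:54273590-54299034 on the minus strand, and Ache at chr5:137287519-137294466 on the plus strand. The promoters of these 4 genes are shown because Chat and Slc18a3 share a locus and varied together across cords, while Slc5a7, of the same neurons, and Ache lie on other chromosomes. Correlations of Chat and Slc18a3, with each other and with both other genes, changed after regression on the GC index described further on. Each runs from 250 bases before to 50 bases after the RefSeq start site (build GRCm38.p6, gene strand, 5′ to 3′). Capitals mark matches on either strand to the GC box GGGCGG, the cAMP response element TGACGTCA, its core TGACG, the Egr site GCGNGGGCG, the TATA box TATAAA, the CCAAT box CCAAT and the LIM-homeodomain core TAATTA.
Chat, chr14:32465860-32466159: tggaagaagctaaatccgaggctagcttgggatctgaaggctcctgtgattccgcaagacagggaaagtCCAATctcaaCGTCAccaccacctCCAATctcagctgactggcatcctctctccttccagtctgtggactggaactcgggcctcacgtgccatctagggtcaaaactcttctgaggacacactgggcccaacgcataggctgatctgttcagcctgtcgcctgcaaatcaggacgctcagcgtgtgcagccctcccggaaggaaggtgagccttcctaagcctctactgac
Slc18a3, chr14:32464801-32465100: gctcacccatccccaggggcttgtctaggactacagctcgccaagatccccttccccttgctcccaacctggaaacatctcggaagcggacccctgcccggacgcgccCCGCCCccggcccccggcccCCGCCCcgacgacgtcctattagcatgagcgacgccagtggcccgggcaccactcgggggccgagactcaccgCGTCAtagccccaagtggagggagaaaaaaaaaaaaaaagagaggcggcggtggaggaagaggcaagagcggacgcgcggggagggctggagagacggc
Slc5a7, chr17:54298985-54299284: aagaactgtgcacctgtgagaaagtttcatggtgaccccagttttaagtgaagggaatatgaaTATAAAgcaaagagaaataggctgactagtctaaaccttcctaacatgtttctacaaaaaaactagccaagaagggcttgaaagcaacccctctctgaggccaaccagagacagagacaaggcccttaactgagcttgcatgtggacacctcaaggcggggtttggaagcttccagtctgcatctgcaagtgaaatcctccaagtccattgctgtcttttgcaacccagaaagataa
Ache, chr5:137288004-137288303: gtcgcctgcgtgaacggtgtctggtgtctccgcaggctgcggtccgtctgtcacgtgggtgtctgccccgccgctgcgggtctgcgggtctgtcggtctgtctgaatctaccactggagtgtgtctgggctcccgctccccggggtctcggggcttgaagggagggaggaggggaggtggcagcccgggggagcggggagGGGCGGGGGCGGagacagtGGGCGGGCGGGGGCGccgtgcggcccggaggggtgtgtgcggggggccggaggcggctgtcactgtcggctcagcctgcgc

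The 4 promoters differed in composition. GC content was 74.0% for Ache, 67.0% for Slc18a3, 55.7% for Chat and 44.7% for Slc5a7, against a median of 52.7% over 32851 RefSeq promoters of this length. Ache held 4 GC boxes, 50, 44, 31 and 27 bases before its start, partly overlapping 2 Egr sites. Slc18a3 held 2 GC boxes, 142 and 122 bases before its start, and the Chat window held none. GC boxes occur in 35.7% of all promoters and Egr sites in 5.55%. Chat and Slc18a3 each had 1 core of the cAMP response element, 171 and 49 bases before their starts, a motif found in 20.8% of promoters. Chat also had 2 CCAAT boxes (37.4% of promoters), and Slc5a7 had 1 TATA box motif, 187 bases before its start (13.6% of promoters). These are matches of letters and show no binding. Of the 10 genes, 9 had a RefSeq promoter entry.

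Levels per kilobase of merged exon set the order of the genes. Ache was highest at 41.0 ± 2.80 CPM per kb (SD, n = 23), above Slc5a7 at 23.9 ± 2.14 CPM per kb in 23 of 23 cords. Slc18a3 at 16.3 ± 2.55 and Chrm2 at 16.03 ± 1.295 CPM per kb did not separate, with Slc18a3 the higher in 14 of 23 cords. Chat followed at 6.66 ± 0.742 CPM per kb. The vesicular transporter thus exceeded its host gene in every one of the 23 cords, by 2.02 to 3.00 times per kb. Chat was counted over 4703 merged exon bases while its longest transcript has 2858, and Slc18a3 has 2413 in both. The size of the ratio therefore depends on the annotation. Without division by length, mean levels were 39.2 CPM for Slc18a3 and 31.3 CPM for Chat. Bche lay at 2.55 ± 0.311 CPM per kb, so that acetylcholinesterase exceeded butyrylcholinesterase RNA by 11.4 to 24.4 times.

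Among the receptors, Chrm2 made up most of the RNA. It accounted for 81.8 ± 2.00% (SD, n = 23) of the summed receptor level per kb, Chrm3 for 9.24 ± 1.06%, Chrm4 for 4.33 ± 1.21%, Chrm5 for 3.91 ± 0.926% and Chrm1 for 0.697 ± 0.173%. Chrm2 stood above Chrm3 by 7.27 to 12.1 times per kb. Chrm4 at 0.845 ± 0.236 and Chrm5 at 0.767 ± 0.186 CPM per kb did not separate, with Chrm4 higher in 15 of 23 cords. Chrm1 was lowest at 0.137 ± 0.0369 CPM per kb, from 41 to 154 counts per library. The counted exons of Chrm4 and Chrm5 are coding sequence only, while coding bases were 21.3% of the counted Chrm1 exons, so levels per kb depend on how far each annotation reaches. Small stretches of 3 genes were shared with annotated antisense genes, 98 bases of Ache with Gm42456, 329 of Chrm1 with Gm22820 and 142 of Chrm2 with 9330158H04Rik, and the counting took no account of strand.

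Chat lay at 29.4 to 34.1 CPM (median 30.8) in the 6 wild-type vehicle cords and at 25.7 to 32.8 CPM (median 31.4) in the 6 knockout vehicle cords. With paclitaxel the 5 wild-type cords held 22.7 and 25.3 CPM (females) and 36.3, 35.8 and 31.6 CPM (males), and the 6 knockout cords 29.6 to 36.2 CPM (median 33.9). Both females lay below every other wild-type cord, and the males and the knockouts overlapped. Slc18a3 had the same split in wild-type cords given paclitaxel, at 29.9 and 34.9 CPM in females and 46.7, 55.0 and 39.2 CPM in males. It lay at 30.5 to 43.7 CPM in wild-type vehicle, 28.5 to 42.7 CPM in knockout vehicle and 37.3 to 46.5 CPM in knockout paclitaxel cords. Slc5a7 showed no such split, at 140 and 132 CPM in females and 133, 130 and 120 CPM in males. Its other groups ran from 110 to 152 CPM (wild-type vehicle), 128 to 150 CPM (knockout vehicle) and 103 to 147 CPM (knockout paclitaxel). By their numbers in the labels, libraries 1 to 12 hold females given vehicle and males given paclitaxel, and 13 to 24 hold the converse, so within a treatment sex and library number cannot be told apart.

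**Figure D1:**
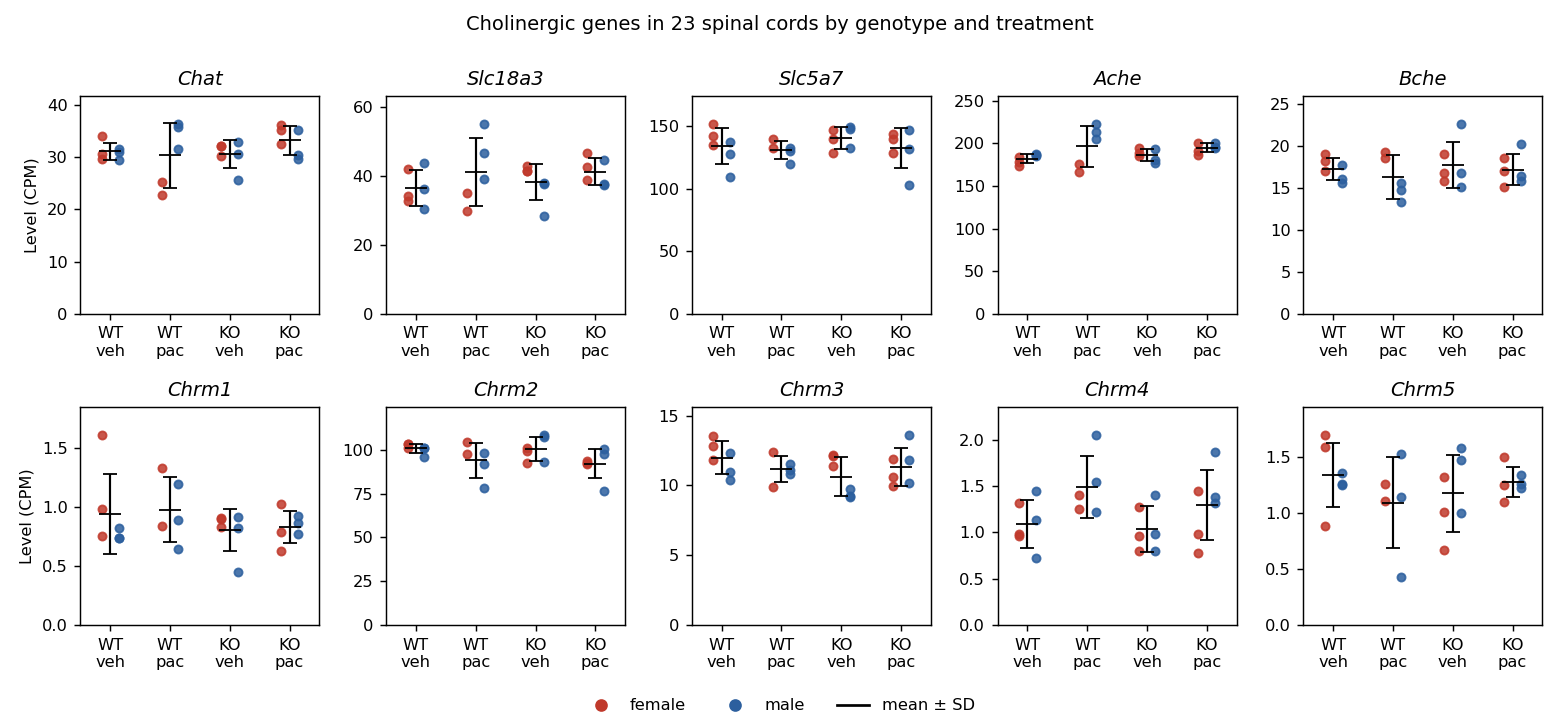
Level of each gene in CPM (y axis, from 0) in 23 cords by genotype (WT, KO) and treatment (veh, pac; x axis), with 1 point per cord coloured by sex and the mean ± SD in black. Groups overlapped for every gene, and in wild-type cords given paclitaxel the 2 females lay below the 3 males for Chat, Slc18a3 and Ache.

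Ache lay at 173 to 187 CPM (median 184) in wild-type vehicle and 177 to 194 CPM (median 187) in knockout vehicle cords. With paclitaxel it reached 213, 223 and 205 CPM in wild-type males, against 167 and 176 CPM in wild-type females, and 187 to 201 CPM (median 195) in knockout cords. The 3 wild-type males held the highest values of all 23 cords. Bche, the other esterase, ran the other way in these 5 cords, at 19.4 and 18.6 CPM in females and 14.8, 13.3 and 15.6 CPM in males. In the other groups Bche lay between 15.1 and 22.6 CPM.

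Chrm2 lay at 96.2 to 104 CPM (median 101) in wild-type vehicle, 78.3 to 105 CPM (median 97.4) in wild-type paclitaxel, 92.6 to 108 CPM (median 100.3) in knockout vehicle and 76.4 to 100.5 CPM (median 93.0) in knockout paclitaxel cords. The lowest values came from 1 male of each paclitaxel group. Chrm3 ran from 10.4 to 13.6 CPM in wild-type vehicle, 9.90 to 12.4 CPM in wild-type paclitaxel, 9.18 to 12.2 CPM in knockout vehicle and 9.95 to 13.6 CPM in knockout paclitaxel cords, and all 4 groups overlapped. The 3 scarce receptors were at 0.453 to 1.61 CPM (Chrm1), 0.725 to 2.05 CPM (Chrm4) and 0.427 to 1.69 CPM (Chrm5) over the 23 cords. Their coefficients of variation were larger than those of the abundant genes, 26.99% for Chrm1 against 6.83% for Ache.

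None of the 10 genes was called between paclitaxel and vehicle over all animals (edgeR quasi-likelihood test, Benjamini-Hochberg adjusted p under 0.05), where 5 of 25372 tested genes were (0.0197%). DESeq2 and limma voom also called 0 of the 10, beside 158 and 5 of all genes. At an unadjusted p under 0.05, 3 of the 10 passed, beside 10.2% of all genes. Median log2 fold change was -0.0018 over the 10 genes and 0.0061 over all genes. Chrm4, the Gi-coupled M4 receptor, lay at 0.775 to 2.05 CPM (median 1.38) in 11 paclitaxel cords and 0.725 to 1.44 CPM (median 0.980) in 12 vehicle cords, which overlapped. Its log2 fold change was 0.35 (95% interval 0.075 to 0.63, edgeR adjusted p = 0.369). Chrm2 lay at 76.4 to 104.5 CPM (median 93.7) with paclitaxel and 92.6 to 108 CPM (median 101) with vehicle, a log2 fold change of -0.11 (95% interval -0.19 to -0.021, edgeR adjusted p = 0.383). Ache lay at 167 to 223 CPM (median 196) against 173 to 194 CPM (median 185), a log2 fold change of 0.064 (95% interval 0.013 to 0.12, edgeR adjusted p = 0.382). That value averages genotypes and sexes equally. Wild-type males held 213, 223 and 205 CPM with paclitaxel and 185, 186 and 187 CPM with vehicle. Wild-type females leaned the other way, at 167 and 176 CPM against 178, 184 and 173 CPM. Knockout males held 195, 201 and 196 CPM against 193, 181 and 177 CPM. Knockout females held 200, 187 and 191 CPM against 185, 194 and 189 CPM. With the ganglion-like library in the fit, the Ache value was -0.011 (edgeR adjusted p = 0.9747). The other 7 genes had log2 fold changes of -0.073 to 0.10.

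Within each genotype no member passed either. In wild-type cords, where 0 genes were called (0.0%, with 7.97% of all genes at an unadjusted p under 0.05, 4 called by DESeq2, 0 by limma voom and 254 with no filter on low counts), log2 fold changes for paclitaxel ran from -0.29 (Chrm5) to 0.40 (Chrm4). In knockout cords 6 genes were called (0.0236%), none of the 10, and the range was -0.12 (Chrm2) to 0.31 (Chrm4). For Chat, intervals of -0.25 to 0.0086 in wild-type and -0.0017 to 0.24 in knockout cords bounded the drug's difference averaged equally over the sexes. Wild-type females held 22.7 and 25.3 CPM with paclitaxel, below the 29.7, 34.1 and 30.6 CPM with vehicle. Wild-type males leaned the other way, at 36.3, 35.8 and 31.6 CPM with paclitaxel and 30.9, 31.6 and 29.4 CPM with vehicle. The wild-type interval therefore does not bound the difference within either sex. None of the 10 had an unadjusted p under 0.05 in either genotype, beside the 7.97% of all genes in wild-type and 11.3% in knockout cords.

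**Figure D2:**
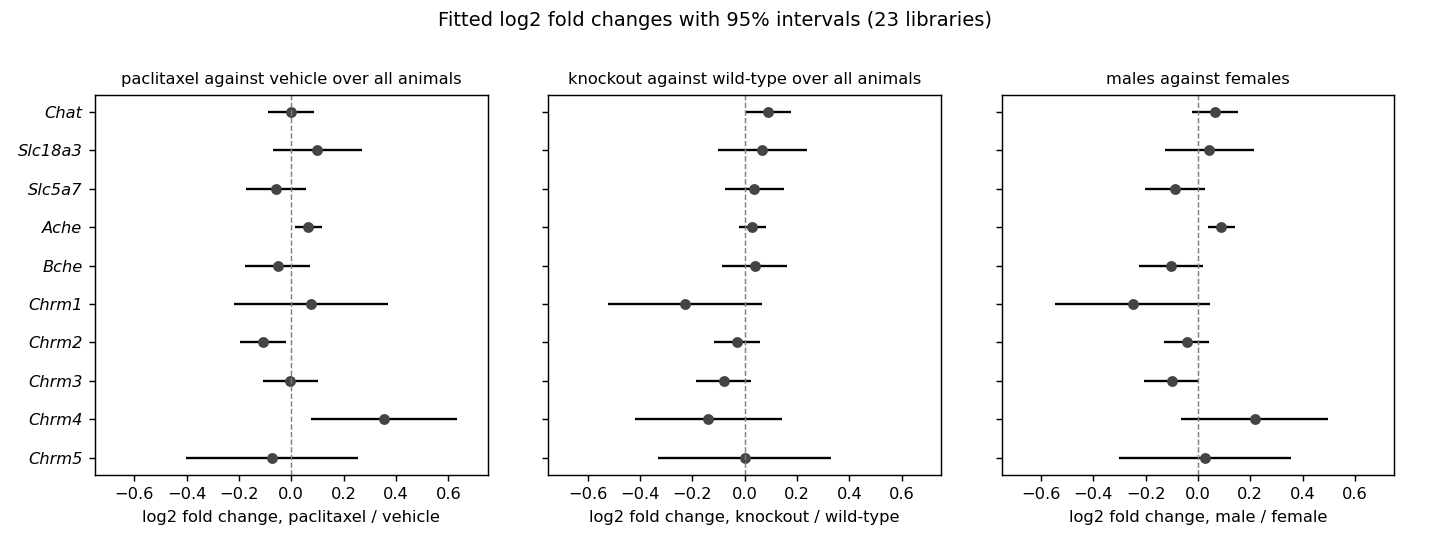
Fitted log2 fold change of each gene (x axis) with its 95% interval for paclitaxel against vehicle, knockout against wild-type and males against females over 23 libraries. Intervals were narrow for Ache (SE 0.025 in each contrast shown) and wide for Chrm1, Chrm4 and Chrm5, and 0 of the 10 genes were called in any of the 3 contrasts.

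Knockout and wild-type cords did not differ by a called member, over all animals (3 of all genes called, 0.0118%), under vehicle (2, 0.00788%) or under paclitaxel (1, 0.00394%). Over 24 libraries 0 of the 10 were called too, beside 0.00809%, 0.00404% and 0.0% of all genes. Chat came nearest. In paclitaxel cords it stood at 33.2 ± 2.79 CPM in knockouts (SD, n = 6) and 30.3 ± 6.15 CPM in wild-types (SD, n = 5), with overlapping ranges. Knockouts were higher in females only, at 36.2, 32.5 and 35.2 CPM against 22.7 and 25.3 CPM in wild-type females. Knockout males held 30.3, 35.2 and 29.6 CPM, against 36.3, 35.8 and 31.6 CPM in wild-type males. The fitted value averages the sexes equally. For Chat under paclitaxel, the log2 fold change was 0.21 (95% interval 0.080 to 0.34, unadjusted p = 0.0026, edgeR adjusted p = 0.790), and over all animals 0.089 (95% interval 0.00048 to 0.18, edgeR adjusted p = 0.999653). Tested with no filter on low counts, the paclitaxel value passed (log2 fold change 0.21, edgeR adjusted p = 0.0255), where 215 of 41809 genes were called (0.514%). With vehicle alone, Chrm3, the Gq-coupled M3 receptor, lay at 9.18 to 12.2 CPM (median 10.6) in knockouts and 10.4 to 13.6 CPM (median 12.1) in wild-types, overlapping, with a log2 fold change of -0.19 (95% interval -0.33 to -0.044, edgeR adjusted p = 0.911). Median log2 fold change of the 10 genes over all animals was 0.015, and that of all genes -0.00072.

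The interaction asks whether the knockout changed the response to paclitaxel, and is the response of knockouts minus that of wild-types. No member and no gene was called (0.0%, with 8.41% of all genes and 2 of the 10 at an unadjusted p under 0.05, 0 genes called by DESeq2 and by limma voom, and 366 with no filter on low counts). Chat had an interaction of 0.24 (95% interval 0.063 to 0.42, edgeR adjusted p = 0.512) and Chrm3 of 0.22 (95% interval 0.0064 to 0.43, edgeR adjusted p = 0.583). Without wild-type female paclitaxel replicate 1, the Chrm3 value was 0.14. In the wild-type paclitaxel cords, Chat was low in the females and not in the males. These contrasts share those cords, so the Chat values under paclitaxel and in the interaction are not separate evidence.

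Males and females differed in 233 genes (0.918%), and in none of the 10 by edgeR, also over 24 libraries (0.113% of all genes). Ache was at 177 to 223 CPM (median 194) in 12 males and 167 to 200.2 CPM (median 185) in 11 females. The ranges overlapped, and the log2 fold change was 0.089 (95% interval 0.037 to 0.14, edgeR adjusted p = 0.0873). In wild-type paclitaxel cords males held 213, 223 and 205 CPM and females 167 and 176 CPM. Wild-type vehicle males held 185, 186 and 187 CPM and females 178, 184 and 173 CPM. Knockout paclitaxel males held 195, 201 and 196 CPM and females 200, 187 and 191 CPM. Knockout vehicle males leaned lower, at 193, 181 and 177 CPM against 185, 194 and 189 CPM in females. DESeq2 called Ache (log2 fold change 0.088, DESeq2 adjusted p = 0.0243), among 583 genes (3.24% of 17993). The other 9 genes ran from -0.25 (Chrm1) to 0.22 (Chrm4). In each of the 7 comparisons of 2 groups, 0 of the 10 genes separated the groups without overlap in CPM. Of all genes, 0.0% did so for paclitaxel over all animals, 0.485% in wild-type and 0.426% in knockout cords, 0.00394% for the knockout over all animals, 0.169% under vehicle and 0.355% under paclitaxel, and 0.0749% between the sexes.

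The genes of transmitter synthesis and storage covaried with both esterases across cords. Over 23 cords, log2(CPM + 0.5) of Chat and Slc18a3 correlated at Pearson's r = 0.82 and Spearman's rho = 0.84 (permutation p = 1e-05 for both, the smallest that 100000 permutations can give; Benjamini-Hochberg 0.00045 over the 45 pairs of members). Without the 2 cords farthest from the median of Chat, r was 0.85, and after subtraction of the means of the 8 groups it was 0.84. Ache correlated with Slc18a3 (r = 0.78, rho = 0.71, permutation p = 2e-05 and 0.00023, Benjamini-Hochberg 0.00045 and 0.0052) and with Chat (r = 0.73, rho = 0.60, permutation p = 9e-05 and 0.0027, Benjamini-Hochberg 0.0010 and 0.0153). Bche was inversely related to Slc18a3 (r = -0.74, rho = -0.61, permutation p = 5e-05 and 0.0022), Ache (r = -0.69, rho = -0.63, permutation p = 0.00024 and 0.0017) and Chat (r = -0.68, rho = -0.68, permutation p = 0.00027 and 0.00064). Slc5a7, the choline transporter of the same neurons, had an r of 0.036 with Chat and 0.038 with Slc18a3 before regression on the GC index described next, which moved both. Slc5a7 correlated with Chrm2 (r = 0.61, rho = 0.62, permutation p = 0.0040 and 0.0021). In all, 9 of the 45 pairs passed by both coefficients, the remaining 2 being Ache with Chrm2 (r = -0.63, rho = -0.68, permutation p = 0.0013 and 0.00043) and Bche with Chrm2 (r = 0.61, rho = 0.58, permutation p = 0.0020 and 0.0046). Benjamini-Hochberg values of the 9 were at most 0.0198 for r and 0.0229 for rho. Without the 2 farthest cords all 9 kept their sign, the smallest being 0.39 for Bche and Chrm2. After subtraction of group means r was 0.70 for Ache with Slc18a3 and with Chat, -0.69, -0.59 and -0.75 for Bche with Slc18a3, Ache and Chat, 0.60 for Slc5a7 with Chrm2, 0.54 for Bche with Chrm2 and -0.37 for Ache with Chrm2.

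**Figure D3:**
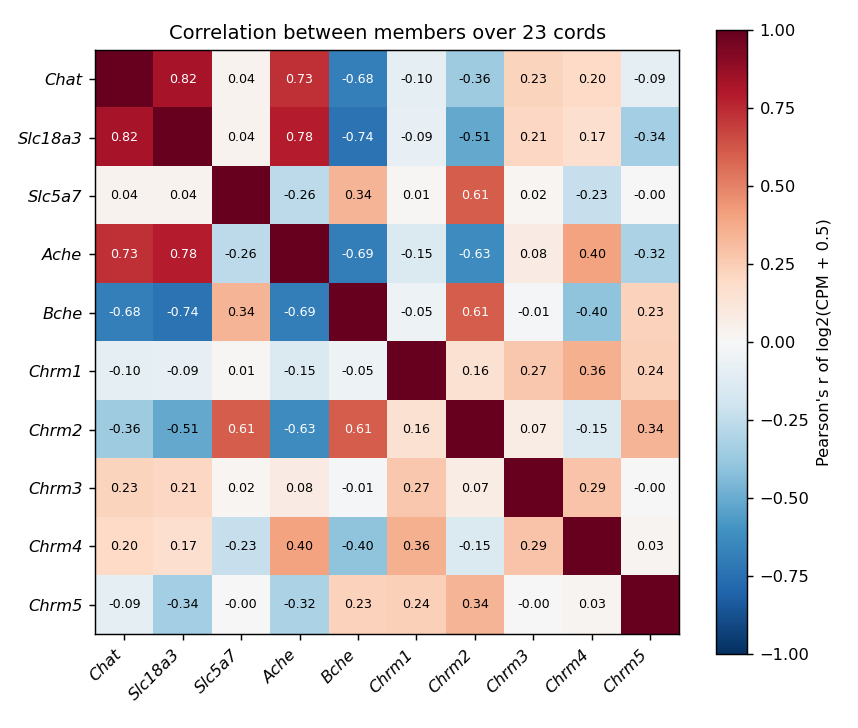
Pearson's r between each pair of genes over 23 cords, from log2(CPM + 0.5), on a scale from -1 (blue) to 1 (red). Chat, Slc18a3 and Ache form a positive block at 0.73 to 0.82, and Bche is negative against all 3. After regression on the GC index described below, r was 0.60 for Chat with Slc18a3, 0.28 for Slc18a3 with Ache and 0.26 for Chat with Ache. For Bche it was then -0.34 with Slc18a3, -0.29 with Chat and -0.0093 with Ache.

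The cords also differed in the level of GC-rich against GC-poor genes, and several members moved with that difference. The longest transcript has 61.2% GC for Slc18a3, 58.7% for Ache and 54.3% for Chat, but 41.6% for Chrm2, 40.8% for Slc5a7 and 38.3% for Bche. That of Chrm4 has 57.0% and that of Chrm1 53.0%. A GC index was computed for each cord as the median centred log2 level of the 20% of genes richest in GC minus that of the 20% poorest, members left out, and it ran from -0.22 (knockout male vehicle replicate 3) to 0.21 (wild-type male paclitaxel replicate 2). Over 23 cords the index correlated with Ache at r = 0.90, Slc18a3 at 0.78 and Chat at 0.72, and with Bche and Chrm2 at -0.76 each, given as a description. For Slc5a7 it was -0.41, for Chrm4, richer in GC than Chat, 0.32, and for Chrm1 -0.018. After regression of each gene on the index, r was 0.60 for Chat and Slc18a3, 0.28 for Slc18a3 and Ache, 0.26 for Chat and Ache, -0.34 for Slc18a3 and Bche, -0.29 for Chat and Bche, -0.0093 for Ache and Bche, 0.063 for Bche and Chrm2, 0.50 for Slc5a7 and Chrm2, and 0.22, of the opposite sign, for Ache and Chrm2. In the other direction, r of Slc5a7 moved to 0.53 with Chat and 0.64 with Slc18a3, above the values of Ache with the same genes. The value of Slc5a7 with Slc18a3 was then also above the 0.60 of Chat and Slc18a3. Both wild-type female paclitaxel cords were low on the index (-0.15 and -0.14), and the 3 males of that genotype and treatment were high (0.14, 0.21 and 0.095). With the index as a covariate, the log2 fold change of Ache for paclitaxel was 0.020 (unadjusted p = 0.417) and for males 0.048 (unadjusted p = 0.0526). That of Chrm2 for paclitaxel was -0.033 (unadjusted p = 0.418), and that of Chat for knockout under paclitaxel 0.16 (unadjusted p = 0.010, edgeR adjusted p = 0.957). Chrm4 kept 0.32 for paclitaxel (unadjusted p = 0.0679). What sets the index was not tested.

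**Figure D4:**
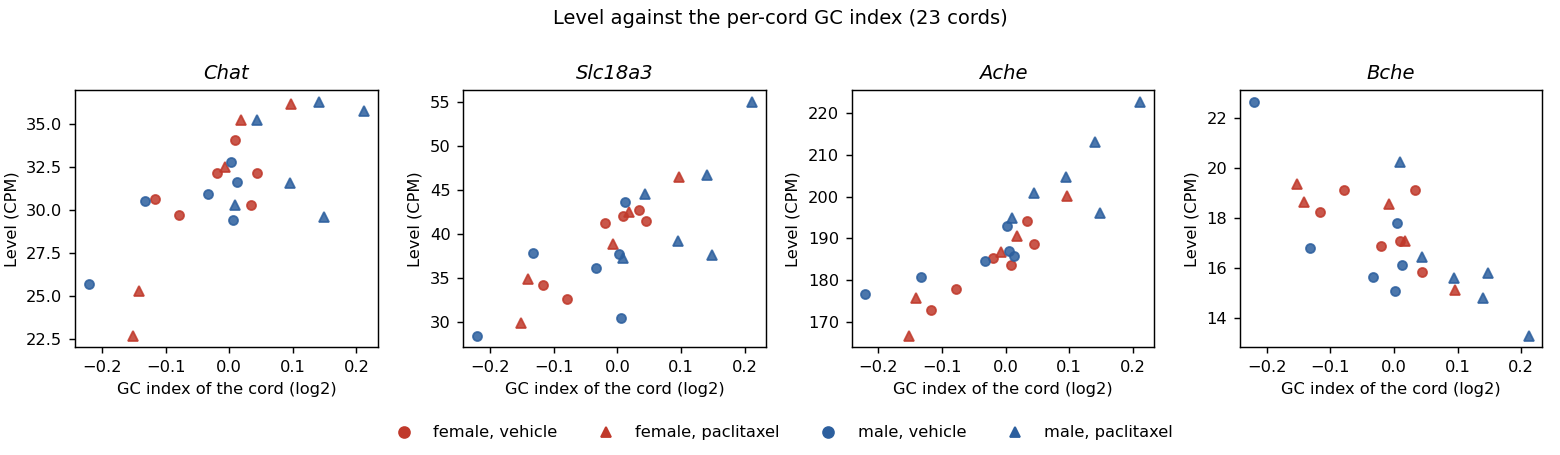
Level in CPM (y axis, not from 0) against the GC index of the cord (x axis, log2) for Chat, Slc18a3, Ache and Bche, with 1 point per cord, colour for sex and shape for treatment. Levels climb with the index for the first 3 genes and decline for Bche, and wild-type male paclitaxel replicate 2, at 0.21, has the highest Ache, at 223 CPM.

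Other genes resembled single members across cords, given as descriptions over 15863 genes after subtraction of group means. Among the nearest to Chat were Acly, the enzyme that makes cytosolic acetyl-CoA (r = 0.90), and Mmp9, a protease of fast motor neurons (r = 0.89). Slc18a3 ranked 11 and Slc5a7 ranked 2750 on that scale. Ache was most like Mapre3 (r = 0.93), Rbfox3, the neuronal nuclear protein NeuN (r = 0.87), and Dctn1 (r = 0.87), and Bche like Olfml1, Cadm2 and Erbb4 (r = 0.91, 0.89 and 0.89). Chrm2 was most like Pcdh17, Magi3 and Dmxl2 (r = 0.94, 0.92 and 0.92), Chrm3 like Slc1a6, 1600014C10Rik and Tmem132c (r = 0.83, 0.83 and 0.81), and Chrm1 like Stt3b, Ccn3 and Thbd (r = 0.82, 0.80 and 0.80). Of 9 other motor neuron markers, 8 had a positive r with Chat and with Slc18a3, up to 0.86 for Mmp9 and for Prph, a neurofilament-type protein, while Esrrg, a nuclear receptor, was at -0.45 and -0.44. Median r of that list was 0.32 with Chat and 0.49 with Slc18a3. This was not particular to motor neurons, as 6 of 6 endothelial markers were positive with both genes (medians 0.41 and 0.49). Of 9 general neuron markers, 7 were positive with Chat and 6 with Slc18a3, and of 7 astrocyte markers 3 with each. All points share the libraries and the GC index.

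Few other genes of the pathway passed the test. Of 20 tested genes for acetylcholine supply and enzyme anchoring (choline carriers, phosphatidylcholine synthesis, acetyl-CoA supply, Colq and Prima1), 11 were higher and 9 lower with paclitaxel over all animals, with 0 called and a median log2 fold change of 0.015. Of all genes 52.9% were higher, with a median of 0.0061. Gpcpd1, which breaks glycerophosphocholine down, had -0.090 (edgeR adjusted p = 0.176) and Pcyt1a, of phosphatidylcholine synthesis, -0.093 (edgeR adjusted p = 0.236). Of 32 genes of muscarinic coupling, 12 were higher and 20 lower, with 0 called and a median of -0.016, and 4 of the 32 had an unadjusted p under 0.05 (10.2% of all genes did), all lower. They were Adcy1, an adenylyl cyclase (log2 fold change -0.15, edgeR adjusted p = 0.285), Kcnj6, a G protein-gated potassium channel (-0.25, adjusted p = 0.420), Itpr1, an IP3 receptor (-0.070, adjusted p = 0.437), and Plcb4, a phospholipase C (-0.074, adjusted p = 0.450). Of 13 tested transcription factor genes of cholinergic neurons, 10 were higher and 3 lower, with 0 called. Tbx20 alone had an unadjusted p under 0.05 (log2 fold change 1.07, edgeR adjusted p = 0.484). It lay near the floor, at 0.070 ± 0.044 CPM with paclitaxel and 0.034 ± 0.028 CPM with vehicle (SD, TMM-scaled). For knockout against wild-type over all animals the 3 lists had 10, 10 and 3 genes higher and 10, 22 and 10 lower, with 0 called in each. Of all genes 49.5% were higher and 0.0118% called in that contrast. The only call of the 3 lists in any of the 8 contrasts was Cept1, which makes choline and ethanolamine phospholipids and was lower in males (log2 fold change -0.12, SE 0.028, edgeR adjusted p = 0.0330). Between the sexes 233 of 25372 tested genes were called (0.918%).

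The ganglion-like library had low levels of Chat, Slc18a3 and Slc5a7. Chat was at 0.749 CPM (71 counts), Slc18a3 at 0.823 CPM (78 counts) and Slc5a7 at 5.91 CPM (560 counts), which is 2.37%, 2.12% and 4.39% of the median of the cords. Ache was at 72.0 CPM, or 38.5%, and Chrm2, Chrm3 and Chrm5 at 25.7, 2.09 and 0.106 CPM. These 7 genes lay below all 23 cords. Bche went the other way, at 33.7 CPM against at most 22.6 CPM, as did Chrm4, at 2.61 CPM against at most 2.05 CPM, and Chrm1, at 1.46 CPM, lay above 22 of the 23. Ache therefore exceeded Bche by 3.12 times per kb there, against 11.4 to 24.4 times in the cords, and Chrm4 made up 27.1% of the receptor level per kb. Summed markers of dorsal root ganglion neurons were at 4634 CPM there (72.4 to 109 CPM in the cords), those of Schwann cells at 3816 CPM (370 to 759 CPM) those of meninges and fibroblasts at 841 CPM (109 to 207 CPM) and those of skeletal muscle at 423 CPM (3.24 to 38.2 CPM). The summed motor neuron list was also higher, at 3055 CPM (423 to 582 CPM), with Calca at 1546 CPM, Prph at 1319 CPM and Isl1 at 128 CPM (at most 62.7, 99.9 and 3.56 CPM in the cords). Other markers of that list were low, with Mnx1 at 0.116 CPM, Chodl at 8.03 CPM and Mmp9 at 1.39 CPM (at least 2.30, 50.4 and 9.04 CPM in the cords). The part of these cell types in the values was not tested. It is a single library, and none of these differences has a replicate.

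**Figure D5:**
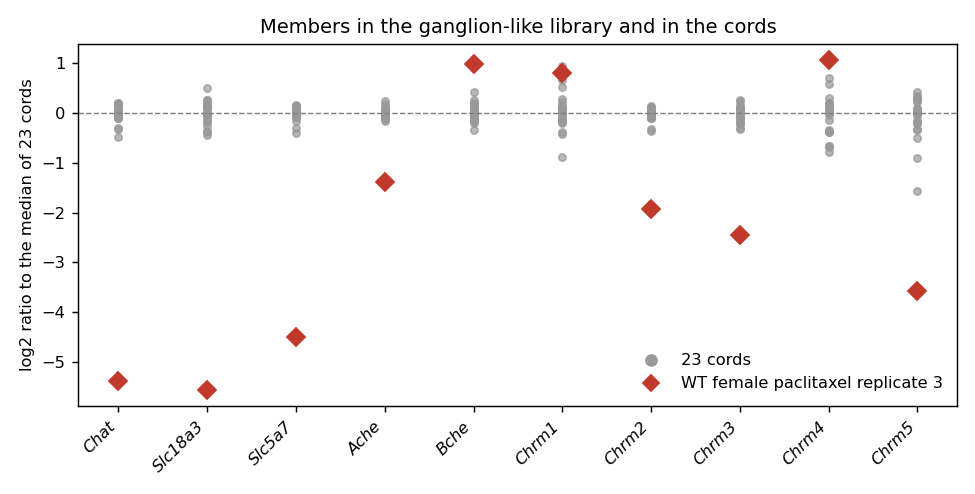
Log2 ratio of each gene to its median over 23 cords (y axis), with grey points for the cords and a red diamond for wild-type female paclitaxel replicate 3. Chat and Slc18a3 lie below -5 in that library, and Bche and Chrm4 lie above every cord, near 1.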

How the data were processed

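The authors deposited 1 table of raw counts per gene symbol for 24 libraries, without normalization. The submitters' processing notes name STAR (no version stated there), featureCounts 1.6.2 and GRCm38 (mm10). Exons of Ensembl release 96 were summed by gene name, without a strand or read-pair option, per the file headers. Small counts were odd in 34.4 to 37.3% of cases, so mates were treated as counted separately, and totals overstate the molecules. Multi-mapping reads and reads over several genes were not counted by the options in the headers.

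Members and lists were chosen with earlier results of these data known. CPM was computed from library totals (median 94343662), and levels per kb used the deposited exon lengths, whose unit is bases per the file headers. Genes were kept with filterByExpr, scaled with TMM factors and fitted in edgeR 4.0.16 (R 4.3.3) with quasi-likelihood models of the 8 group means, without the ganglion-like library. P-values were adjusted over all 25372 tested genes. Fold changes were printed singly for an unadjusted p under 0.05, and the 3 most similar genes were named for 6 members with a correlation over genes of at least 1 CPM, except 1 gene that is not reported here. Correlations used 100000 permutations. The fit was tested on simulated data. Alternatives were all 24 libraries, DESeq2-type size factors, no low-count filter, DESeq2 1.42.0, limma voom 3.58.1, a replicate block and each library left out, and levels were recomputed with TMM factors and without length. The GC covariate and the correlations after regression or group centring, or without the 2 farthest cords, were added after seeing the data. Each library is 1 mouse by the design text, and replicates differed beyond sampling noise (lowest chi-square per degree of freedom 8.98).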

Additional observations from a re-analysis of the deposited data

Results flagged for a closer look

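In 40 combinations of gene and group, the highest or lowest cord was compared with the spread of its group by Dixon's criterion, which chance exceeds in about 1 of 20. Knockout male vehicle replicate 3 was set apart by a low Chat (25.7 CPM, others 30.3 to 32.8 CPM), a low Slc18a3 (28.5 CPM, others 37.7 to 42.7 CPM) and a low Chrm1 (0.453 CPM) among the 6 knockout vehicle cords, and it had the lowest GC index of all cords (-0.22). Chrm1 was high in wild-type female vehicle replicate 1 (1.61 CPM). Chrm2 was low in wild-type male vehicle replicate 2 (96.2 CPM) and in knockout male paclitaxel replicate 3 (76.4 CPM).

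In the ganglion-like library, which was left out of the main fit, Bche (33.7 CPM) and Chrm4 (2.61 CPM) lay above all 23 cords.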

How the results depend on the processing

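The count of called members was recomputed 248 times over the 8 contrasts, and it was 0 in 246 of them. It was 1 with no filter on low counts (Chat, knockout under paclitaxel) and 1 with DESeq2 (Ache, males against females). Leaving out each library gave 0 called members in every contrast. Of 279 alternative values of the 9 log2 fold changes printed singly, 276 kept their direction and side of the threshold, 2 passed it, and that of Ache for paclitaxel reversed to -0.011 over all 24 libraries. As no member was called in the main fit, keeping that side does not measure a stable size. With the GC covariate, Ache for paclitaxel went from 0.064 to 0.020 and Chrm2 from -0.11 to -0.033. Over 24 libraries, Chat for knockout under paclitaxel went from 0.21 to 0.49. The correlation of Ache and Chrm2 reversed to 0.22 after regression on the GC index.

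With the replicate block the count of called members was 0 in every contrast, and 9 in place of 5 genes were called for paclitaxel over all animals. After group means were removed, libraries with the same replicate number correlated at -0.072 to 0.091 and those with different numbers at -0.070 to 0.087. The numbers were therefore not taken to pair animals. By best match, 11 of 23 were most like a library of their own number, a count not compared with what unpaired numbers would give.

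Counts over all genes depended on the method. For paclitaxel over all animals 5 genes were called, 338 without the low-count filter, 158 by DESeq2, 2 with the GC covariate, 0 over 24 libraries, and 2 to 62 with a library left out. For males against females 233 became 749, 583, 72, 28 and 65 to 324. For paclitaxel in knockouts 6 became 470, 126, 0, 0 and 0 to 332. Without the low-count filter, 254 genes were called for paclitaxel in wild-types, 366 for the interaction, and 99, 111 and 215 for the knockout over all animals, under vehicle and under paclitaxel. Chrm1, Chrm4 and Chrm5 rest on 40 to 186 counts per library, and their wide intervals set what could be seen. The causes of these shifts were not tested. TMM factors moved 0 of the levels beyond 1 SD, and 4 ranks changed without division by length.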
